A study of Mus musculus with 7 samples.

Results

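The 10 genes followed here encode parts of the smooth muscle contractile apparatus and its BK potassium channel, and were measured across 7 arrays of mouse cells: Acta2, Actg2, Tagln, Cnn1, Tpm1, Tpm2, Myl9, Mylk, Kcnma1 and Kcnmb1. They were chosen by name, with earlier results of these data known, and all 10 were found among the 22180 genes with a probe set of a single symbol. All cells were of strain 129. One array held wild-type (WT) embryonic stem cells (ESC), 2 held WT induced pluripotent stem cells (iPSC), 2 held Nanog knockout (KO) iPSC, 1 held WT mouse embryonic fibroblasts (MEF) and 1 held Nanog KO MEF. Nanog encodes a pluripotency transcription factor, and the design compares iPSC without it to WT pluripotent cells. The iPSC replicates are called biological in the labels, which name neither the KO allele nor whether the KO arrays come from separate lines, so p-values measure only the spread between these samples. Cells were harvested with trypsin, and 3 media are named without saying which sample grew in which. A difference in medium between the groups cannot be told apart from genotype.

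Contraction of smooth muscle rests on myosin sliding along actin filaments. Calcium bound to calmodulin activates myosin light chain kinase, the product of Mylk, which phosphorylates the regulatory light chain, the product of Myl9. Tropomyosins, calponin (Cnn1) and transgelin (Tagln) lie along the actin filament. Many of these genes are targets of serum response factor (SRF), which binds the CArG box and is activated by myocardin and its relatives. The BK channel is a potassium channel opened by calcium and voltage. Its pore is made by Kcnma1, and Kcnmb1 encodes the accessory subunit typical of smooth muscle. Cultured fibroblasts and myofibroblasts use much of the same contractile set.

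The sequences just upstream of the start were examined for the CArG box, because SRF is the shared regulator of many of these genes. The motif searched was CC, then 6 letters that are each A or T, then GG, which reads the same way on both strands. RefSeq promoter sequences of assembly GRCm38.p6 matched 8 of the 10 genes by symbol (not Tagln and Actg2), and the 250 bases before the start were searched. One of the 8, Myl9, held the box, against 1.47% of 32851 promoters. A relaxed form with 1 C or G among the 6 inner letters was present in 2 of the 8, Acta2 and Myl9, against 7.24% of all promoters. The relaxed and the strict form do not overlap in the sequences shown. Capitals mark both forms.
Acta2 (chr19:34255374-34255623, minus strand): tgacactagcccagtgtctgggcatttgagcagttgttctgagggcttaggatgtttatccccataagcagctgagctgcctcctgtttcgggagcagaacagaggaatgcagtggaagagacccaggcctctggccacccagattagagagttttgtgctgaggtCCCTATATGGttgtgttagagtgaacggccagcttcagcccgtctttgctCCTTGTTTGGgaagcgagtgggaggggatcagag
Myl9 (chr2:156775214-156775463, plus strand): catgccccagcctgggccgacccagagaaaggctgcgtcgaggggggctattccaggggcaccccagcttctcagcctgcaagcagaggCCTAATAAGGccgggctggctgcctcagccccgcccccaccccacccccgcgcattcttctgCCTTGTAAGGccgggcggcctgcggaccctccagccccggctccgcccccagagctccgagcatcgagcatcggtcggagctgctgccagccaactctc
The motifs in Acta2 begin 84 and 34 bases before the start, and those in Myl9 begin 161 and 99 bases before it. A match describes the letters and does not show a bound site, and the other 6 promoters hold neither form in this window.

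Values are log2 intensities of 1 probe set per gene, so levels of different genes are not compared. A background yardstick was set on each array at the level under which 95% of 1390 odorant (olfactory and vomeronasal) receptor genes fell, and it lay between 6.30 and 6.50. Nanog stood at 12.73 to 12.84 in the WT pluripotent arrays and at 7.50 and 7.44 in KO iPSC. Of 14 pluripotency markers, 13 or 14 lay above background on each ESC and iPSC array and 4 or 5 on the MEF arrays. Of 24 fibroblast markers, 23 and 24 lay above background in WT and KO MEF. They were not absent from the pluripotent arrays: 22 lay above background for WT ESC, 23 and 18 for WT iPSC replicates 1 and 2, and 17 and 19 in KO iPSC replicates 1 and 2. WT iPSC replicate 1 stood apart from replicate 2 by more than 2-fold in 350 genes, whereas the KO iPSC arrays differed that far in 4.

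**Figure D1:**
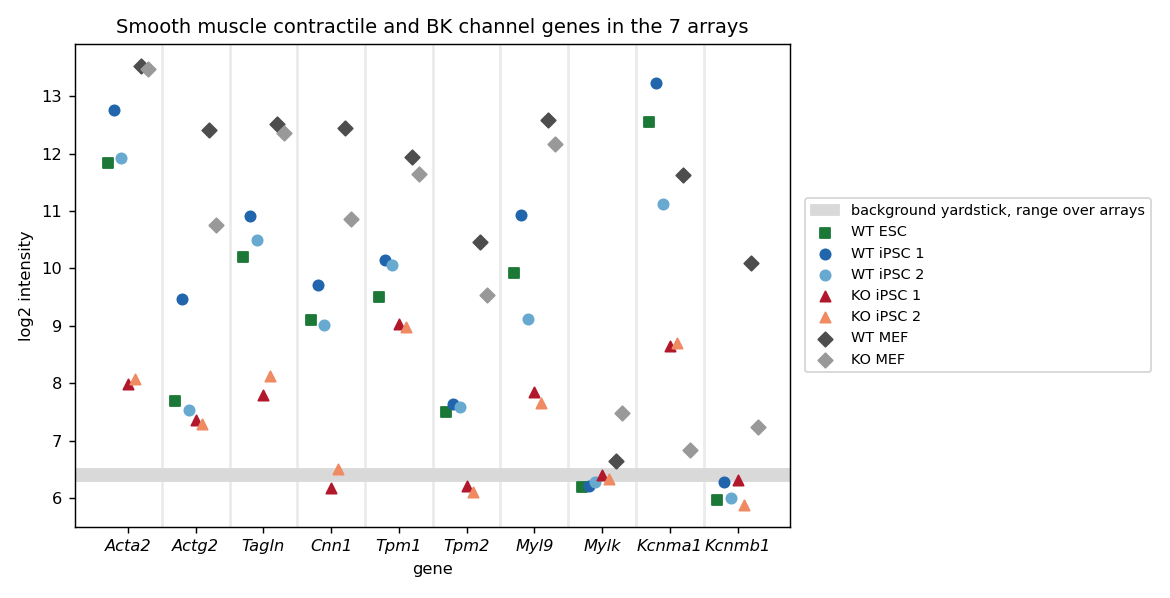
Log2 intensity (vertical axis) of the 10 genes (horizontal axis) in each of the 7 arrays, 1 symbol per array, with the range of the background yardstick as a grey band. Acta2 stands near 8 in both KO iPSC arrays and at 11.84 to 12.76 in the WT pluripotent arrays, while Mylk and Kcnmb1 lie at or below the band in every pluripotent array.

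Acta2 encodes alpha smooth muscle actin. It stood at 11.84 in WT ESC, at 12.76 and 11.91 in the 2 WT iPSC arrays, at 7.99 and 8.08 in the KO iPSC arrays, at 13.52 in WT MEF and at 13.47 in KO MEF. The WT pluripotent arrays thus lay below the MEF arrays, and the KO iPSC arrays lay far below both but above background. Actg2, the gamma smooth muscle actin of gut and other visceral muscle, was at 7.69 in WT ESC, 9.47 and 7.54 in the WT iPSC pair, 7.35 and 7.28 in KO iPSC, 12.41 in WT MEF and 10.76 in KO MEF. Only WT iPSC replicate 1 stood clearly above the other pluripotent arrays for this gene. The actins are nearly identical in coding sequence, and the specificity of their probe sets was not tested.

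Tagln encodes transgelin (SM22 alpha), an actin-binding protein. Its values were 10.20 in WT ESC, 10.92 and 10.50 in the WT iPSC pair, 7.79 and 8.12 in KO iPSC, 12.51 in WT MEF and 12.36 in KO MEF. Cnn1 encodes calponin, which restrains the myosin motor on actin. It was at 9.10 in WT ESC, 9.71 and 9.02 in the WT iPSC pair, 6.18 and 6.50 in KO iPSC, 12.44 in WT MEF and 10.86 in KO MEF. For both genes every KO iPSC value lay below every WT pluripotent value, and Cnn1 in KO iPSC had come down to about the background yardstick.

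The tropomyosins, which control access of myosin to actin, moved over a narrower range. Tpm1 stood at 9.51 in WT ESC, 10.14 and 10.06 in the WT iPSC pair, 9.04 and 8.97 in KO iPSC, 11.93 in WT MEF and 11.64 in KO MEF. Tpm2 stood at 7.50 in WT ESC, 7.64 and 7.59 in the WT iPSC pair, 6.22 and 6.11 in KO iPSC, 10.46 in WT MEF and 9.54 in KO MEF. Tpm2 lay below background in both KO iPSC arrays, Tpm1 well above it in every array. Tpm1 and Tpm2 each give several splice forms, which 1 probe set per gene does not separate.

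Myl9 encodes the regulatory light chain of smooth muscle myosin. It was at 9.92 in WT ESC, 10.92 and 9.12 in the WT iPSC pair, 7.85 and 7.66 in KO iPSC, 12.58 in WT MEF and 12.16 in KO MEF. Its WT iPSC arrays lay 3.49-fold apart, and the lower one was still above both KO iPSC arrays. Mylk, the kinase of that light chain, was at 6.20 in WT ESC, 6.21 and 6.28 in the WT iPSC pair, 6.40 and 6.34 in KO iPSC, 6.65 in WT MEF and 7.48 in KO MEF. It lay below background in all 5 pluripotent arrays and only slightly above it in WT MEF.

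Kcnma1, the BK channel pore, had a pattern of its own. It stood at 12.56 in WT ESC, 13.23 and 11.12 in the WT iPSC pair, 8.65 and 8.70 in KO iPSC, 11.63 in WT MEF and 6.84 in KO MEF. WT ESC and WT iPSC replicate 1 exceeded WT MEF, which no other member did, and KO MEF was the lowest of the 7 arrays. These values come from 1 of 2 Kcnma1 probe sets, the brighter one. The other lay between 5.65 and 5.90 in the pluripotent arrays and WT MEF, below background, and at 6.37 in KO MEF, so it showed none of these differences. Kcnmb1 was at 5.97 in WT ESC, 6.29 and 6.01 in the WT iPSC pair, 6.32 and 5.89 in KO iPSC, 10.09 in WT MEF and 7.24 in KO MEF. The accessory subunit was thus below background in all 5 pluripotent arrays, including those with the highest pore signal.

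The first comparison set the 2 KO iPSC arrays against the 3 WT pluripotent arrays, as the series' design does. At an adjusted p under 0.05 in limma, 7 of the 10 genes fell and 0 rose, where 8.81% of all 22180 genes were called lower and 6.89% higher. Because the 10 genes were chosen with earlier results known, their counts beside all genes, here and below, are descriptions and not tests of the set. Acta2 fell 17.6-fold (log2 difference -4.14, SE 0.29, adjusted p = 0.00132) and Kcnma1 12.3-fold (-3.63, SE 0.58, adjusted p = 0.0137). Cnn1 fell by 2.94 on the log2 scale (SE 0.23), with no fold given because only 1 of the 2 KO iPSC arrays lay above background. Tagln fell 5.97-fold (-2.58, SE 0.23) and Myl9 4.70-fold (-2.23, SE 0.49, adjusted p = 0.0353). Tpm2 fell at least 2.15-fold, a lower bound against the background yardstick because both KO arrays lay below it (fitted difference -1.41, SE 0.09). Tpm1 fell 1.86-fold (-0.89, SE 0.20, adjusted p = 0.0361).

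Actg2 (-0.92, SE 0.58, adjusted p = 0.341) did not pass in that comparison. Mylk (0.14, SE 0.08) and Kcnmb1 (0.01, SE 0.17) were below background on both sides, so no fold is given for them. Both KO iPSC arrays lay below each of the 3 WT arrays in 8 of the 10 genes, as in 23.2% of all genes. The median difference of the 10 genes was -1.82, against 0.03 over all genes. Lower genes made up 56.1% of all calls on the deposited scale and 45.9% with array medians set equal, while the 7 members were called lower on both scales. The count rested on both KO arrays: 3 members passed without KO iPSC replicate 1 (Acta2, Cnn1 and Tpm2) and 4 without KO iPSC replicate 2 (these and Tagln), where 1.54% and 1.82% of all genes were called. Without WT iPSC replicate 1, 6 passed (Tpm1 was lost), with Acta2 at -3.84, where 11% of all genes were called lower and 7.8% higher. The calls of Kcnma1, Myl9 and Tpm1 were therefore lost when either KO array was left out, with differences of -3.60 and -3.65, -2.33 and -2.13, and -0.93 and -0.86.

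Within iPSC alone, 6 of the 10 genes were lower in KO and 0 higher, where 9.55% of all genes were called lower and 6.93% higher. This comparison uses the same KO arrays and 2 of the same 3 WT arrays, so it is no independent repeat. Acta2 differed by -4.30 (SE 0.28, adjusted p = 0.00203), Kcnma1 by -3.50 (SE 0.67, adjusted p = 0.0272), Cnn1 by -3.03 (SE 0.25), Tagln by -2.75 (SE 0.19) and Tpm1 by -1.09 (SE 0.09). Tpm2 was at least 2.20-fold lower (fitted difference -1.45, SE 0.09). Myl9 (-2.27, SE 0.58) did not pass, at an adjusted p of 0.0591, and Actg2 (-1.19, SE 0.61) did not pass at 0.264. The WT iPSC arrays were far apart in both of these genes.

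The array left out decided the size for these genes. A fit without 1 WT iPSC array takes its spread from the closely matched KO pair alone, and without WT iPSC replicate 1 it called 15.7% of all genes lower and 11.3% higher, with 7 members lower. Without WT iPSC replicate 1, Actg2 in KO iPSC differed from the remaining WT iPSC array by -0.22 (adjusted p = 0.158), and without replicate 2 by -2.15 (adjusted p = 9.56e-05). Myl9 passed without either one, at -1.36 and -3.17, and Kcnma1 at -2.45 and -4.55. Acta2 differed by -3.88 without WT iPSC replicate 1 and by -4.73 without replicate 2. Kcnma1 did not pass without either KO iPSC array (adjusted p = 0.142 and 0.132) or with trend and robust fitting (0.109). With the mean of both Kcnma1 probe sets, the difference was -1.83 in place of -3.50.

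**Figure D2:**
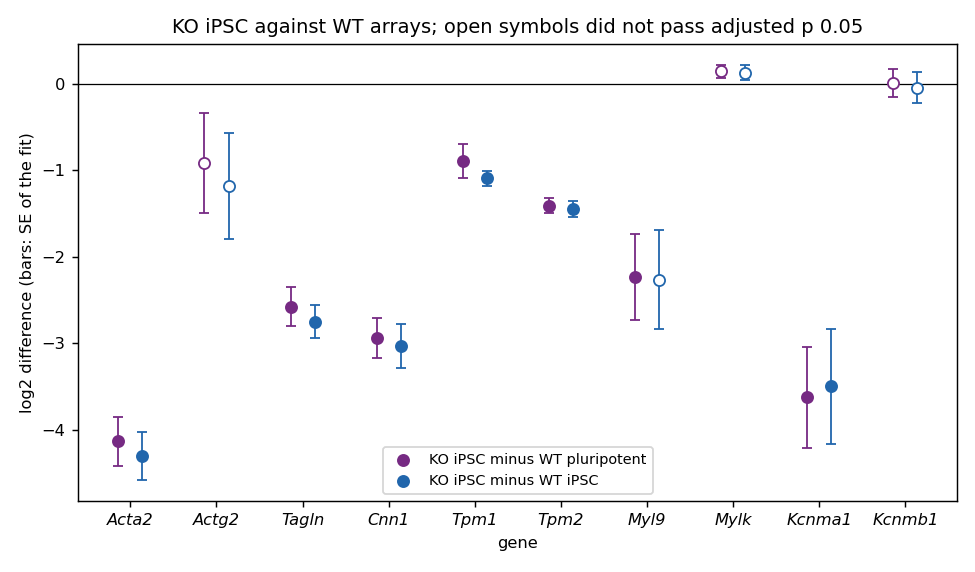
Log2 difference of KO iPSC from the 3 WT pluripotent arrays and from the 2 WT iPSC arrays (vertical axis) for the 10 genes (horizontal axis), with bars of 1 SE of the fit and open symbols where the adjusted p did not pass 0.05. Acta2 lies at -4.14 and Kcnma1, by the brighter of its 2 probe sets, at -3.63 against WT pluripotent arrays (-1.88 by the mean of both probe sets), and Mylk and Kcnmb1 lie near 0.

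Among the WT pluripotent arrays, fibroblast markers were by their median highest in WT iPSC replicate 1, as were most of these genes. The 2 sets differed between WT ESC and WT iPSC replicate 2. There 4 of the 10 members were higher in WT ESC, with a median difference of -0.06, while the median of the markers was higher in WT ESC. The summed linear intensity of the 24 markers was 22902 in WT ESC, 34331 and 19490 in WT iPSC replicates 1 and 2, 19711 and 19985 in KO iPSC, 88300 in WT MEF and 120116 in KO MEF. Fn1, Vim and Sparc were bright in every pluripotent array and weigh most in these sums. Fn1 was lower in WT iPSC replicate 2 (12.61) than in KO iPSC (13.19 and 13.18), and Vim higher (12.89 against 12.45 and 12.48), so the sums say little about the other markers. Their median log2 level was 8.21 for WT ESC, 9.40 for WT iPSC replicate 1, 7.46 for replicate 2, and 7.10 and 7.13 for KO iPSC. In KO iPSC against WT pluripotent arrays, 2 of the 24 fell and 0 rose, near the 8.81% of all genes called lower (6.89% higher). Their median was -0.78, and 21 of the 24 lay below 0, as did 9666 of all 22180 genes. In limma 9 of the 24 had an unadjusted p under 0.05, as had 6992 of all genes. In bulk samples, fewer cells of a type and less RNA per cell cannot be told apart.

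To set the members beside these markers, each level was placed on a linear scale from the mean of the KO iPSC arrays (0) to WT MEF (100%). All members but Mylk (9 of 10) and 17 of the 24 markers were at least 4-fold higher in WT MEF than in KO iPSC and could be placed. In WT iPSC replicate 1 the 9 members had a median of 18.1% and the 17 markers a median of 14.4%, with ranges of 0.86% to 331% and 5.10% to 59.7%. In WT iPSC replicate 2 the 17 markers lay between -8.76% and 4.08%, with a median of 0.79%. On the log2 scale 12 of all 24 markers, and 8 of the 10 members, were still above both KO iPSC arrays on this array. More than 2-fold above the KO mean were 7 members and 3 markers. Among these markers were Lox (8.04 against 5.35 and 6.10) and Col1a1 (8.64 against 7.22 and 7.23), named after their values were seen. The share of all genes that met these limits on this array was not counted. Members were chosen with earlier results known, so the counts are descriptions and not a contrast of the sets. On the percent scale 7 of the 9 members lay above the highest of the 17 markers that could be placed. Among them were Kcnma1 at 65.8%, Tagln at 21.4%, Tpm1 at 16.3%, Tpm2 at 9.02% and Cnn1 at 8.02%. Actg2 (0.50%) and Kcnmb1 (-0.48%) did not lie above it. Markers under the 4-fold limit are left out, so this does not cover all 24. One of them, Vim, stood at 12.89 in this array, between KO iPSC (12.45 and 12.48) and WT MEF (13.52). Another, Fn1, stood at 12.61, below KO iPSC (13.19 and 13.18).

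Acta2 was at 29.5% in WT ESC, 58.0% in WT iPSC replicate 1 and 31.2% in replicate 2. Its WT MEF level, the upper reference of this scale, lay near the highest intensity measured, and whether intensities are compressed there was not tested. Kcnma1 reached 203% in WT ESC. In WT ESC 2 members, Acta2 and Kcnma1, lay above the highest of the 17 placed markers (19.8%). In WT iPSC replicate 1 only Kcnma1 did. A gene that is lower in KO iPSC lies above 0 on this scale by construction, so the positions are a description and were not tested. The part of fibroblast signal in the members' differences was not tested.

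**Figure D3:**
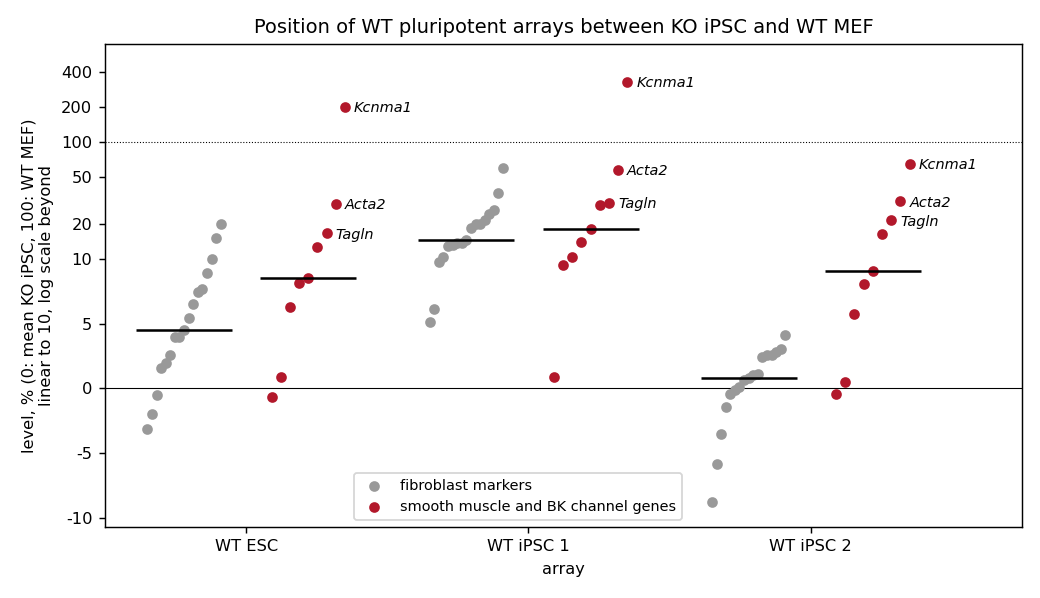
Level of 9 members (red) and 17 fibroblast markers (grey) in the 3 WT pluripotent arrays (horizontal axis), as a percent of the distance from the mean of KO iPSC (0) to WT MEF (100) on linear intensities. The vertical axis is linear to 10 and logarithmic beyond, and black lines are medians. In WT iPSC 2 the markers have a median of 0.79% and the members one of 9.02%.

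A comparison of ESC with iPSC shows how far the WT pluripotent cells differed among themselves. None of the 10 genes passed in limma (0 called, 1 at an unadjusted p under 0.05), where 0.162% of all genes did (0.0812% higher and 0.0812% lower). In 9 of 10 genes the difference was below 0, with a median of -0.23 and with WT iPSC replicate 1 the higher of the WT iPSC arrays in 9 of the 10 genes. The largest was Actg2 at -0.81 (SE 0.75), and the one gene with an unadjusted p under 0.05 was Tpm1 (-0.59, SE 0.11, adjusted p = 0.15). Acta2 (-0.50, SE 0.34) and Kcnma1 (0.38, SE 0.82) had errors too large to place ESC above or below iPSC. The outcome depended on WT iPSC replicates: 2 genes passed without replicate 1 (Kcnma1 at 1.43 and Myl9 at 0.80, both higher in ESC), and 5 passed without replicate 2, all lower in ESC, with Kcnma1 then at -0.67. Each sets 1 array against 1, with the spread of the KO iPSC pair, and called 4.04% and 10.3% of all genes.

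The cell types were compared within each genotype, iPSC against MEF, each time with 2 arrays against 1. In WT cells 8 of the 10 genes were lower in iPSC and 0 higher, against 15.4% of all genes called lower (32.6% in either direction). Kcnmb1 was at least 12.8-fold lower in WT iPSC, Actg2 15.0-fold (-3.91, SE 0.75), Cnn1 8.40-fold (-3.07, SE 0.31), Tpm2 7.18-fold (-2.84, SE 0.11) and Myl9 5.92-fold (-2.57, SE 0.71). Tpm1 (-1.83, SE 0.11) and Tagln (-1.80, SE 0.23) were lower as well, and Mylk was at least 1.19-fold lower. Acta2 differed by -1.19 (SE 0.34) and just missed the threshold (adjusted p = 0.0529), and Kcnma1 by 0.54 (SE 0.82, adjusted p = 0.689). Without WT iPSC replicate 1 Kcnma1 was lower in iPSC (-0.51, adjusted p = 0.0126) and without replicate 2 higher (1.59, adjusted p = 0.000171), so these arrays give no stable direction for it. Myl9 and Mylk did not pass without either KO iPSC array (adjusted p = 0.0829 and 0.123), since those arrays enter the estimate of the spread.

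In KO cells 9 of the 10 genes were lower in iPSC than in MEF and 0 higher, against 17.9% of all genes called lower (35.9% in either direction). Acta2 was 43.2-fold lower (-5.43, SE 0.34, adjusted p = 0.000467), Myl9 21.2-fold (-4.41, SE 0.71) and Tagln 21.1-fold (-4.40, SE 0.23). Cnn1, at background in KO iPSC, differed by -4.51 (SE 0.31). Actg2 was 10.8-fold lower (-3.44, SE 0.75), Tpm2 at least 8.39-fold, Tpm1 6.22-fold (-2.64, SE 0.11), Mylk at least 2.01-fold and Kcnmb1 at least 1.71-fold. Kcnma1 was the exception, with a difference of 1.83 (SE 0.82, adjusted p = 0.152) that did not pass. Whether it passed depended on the WT iPSC arrays, which enter the estimate of the spread. Actg2 was lost without KO iPSC replicate 1 or 2 (adjusted p = 0.0692 and 0.0715).

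Whether the cell type difference was the same in both genotypes was tested as an interaction, which is the KO difference minus the WT difference. Of the 10 genes 4 passed, 3 lower and 1 higher, where 5.48% of all genes were called lower and 3.07% higher (8.55% in all). The step from MEF down to iPSC was larger in KO for Acta2 (-4.25, SE 0.48, adjusted p = 0.0138), Tagln (-2.59, SE 0.32, adjusted p = 0.0163) and Tpm1 (-0.80, SE 0.15, adjusted p = 0.0424). With array medians set equal, Tpm1 did not pass in limma (-0.73, adjusted p = 0.0534). Acta2 in both MEF arrays lay near the highest intensity measured, and whether differences are compressed there was not tested. Kcnmb1 passed in the other direction (2.79, SE 0.31, adjusted p = 0.0133). Its 4 iPSC values were all below background, so this value is in effect the difference of 1 MEF array from 1 other (-2.84), whose spread was not measured, and its p is not read as a test of genotype. Cnn1 (-1.45, SE 0.44), Myl9 (-1.84, SE 0.998), Kcnma1 (1.29, SE 1.15) and Actg2 (0.47, SE 1.06) did not pass. Nor did Mylk (-0.70, SE 0.15, adjusted p = 0.0562), whose iPSC values were all below background, and Tpm2 (-0.53, SE 0.16, adjusted p = 0.114). These calls depended on the KO arrays, since 0 members passed without KO iPSC replicate 1 and 1 (Kcnmb1) without replicate 2, when 0.401% and 0.712% of all genes did. Without WT iPSC replicate 1, 9 members and 22.6% of all genes passed, and without replicate 2, 7 members and 21.8%.

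**Figure D4:**
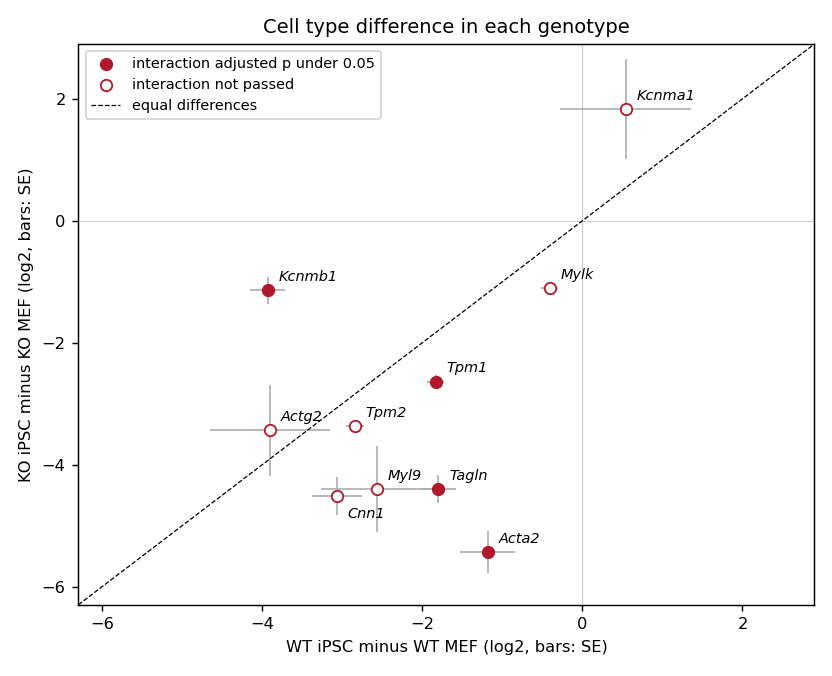
Log2 difference of iPSC from MEF in WT cells (horizontal axis) against the same in KO cells (vertical axis) for the 10 genes, with bars of 1 SE and filled symbols where the interaction passed. Acta2 (-1.19 in WT, -5.43 in KO) and Tagln lie far below the dashed line of equal differences, and Kcnmb1 (-3.94 in WT, -1.14 in KO) above it.

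KO MEF and WT MEF, with 1 array each, give differences with no test and no replicate check. By the brighter of its 2 probe sets, Kcnma1 was 27.7-fold lower in KO MEF (-4.79). It lay there only 0.49 above the yardstick on the log2 scale. Its other probe set did not show this fall, at 5.86 in WT MEF, below background, and 6.37 in KO MEF. Kcnmb1 was 7.18-fold lower (-2.84), Actg2 3.15-fold (-1.66) and Cnn1 about as much (-1.58). With that brighter Kcnma1 probe set, both BK channel subunits were among the 4 of 10 members more than 2-fold lower in KO MEF. Of all genes 1.77% were that much lower, and 4.56% differed that far in either direction. Tpm2 differed by -0.92, Myl9 by -0.42, Tpm1 by -0.29, Tagln by -0.16 and Acta2 by -0.06, and Mylk was higher in KO MEF by 0.83. The SD of this difference over all genes was 0.47. Fibroblast markers went the other way, with 23 of 24 higher in KO MEF (7 of them over 2-fold, 0 over 2-fold lower) and a median of 0.35. The range was wide, with Lum higher by 5.51, Dcn by 4.20 and Pdgfra by 3.10. Of 10 pericyte and endothelial markers, 3 were over 2-fold higher in KO MEF: Anpep (1.945), Notch3 (1.51) and Tek (1.36). Another 2 were over 2-fold lower, the pericyte gene Rgs5 (-2.48) and the endothelial gene Emcn (-2.47). These genes of both marker lists were named after their values were seen. The part of such markers in the members' differences was not tested.

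Markers that define mature smooth muscle were measured alongside. Smooth muscle myosin heavy chain Myh11 was at 9.16 in WT MEF, 8.22 in KO MEF and between 7.12 and 7.38 in the pluripotent arrays. Leiomodin Lmod1 was at 9.72 and 8.96 in the MEF arrays and between 7.11 and 7.57 in the pluripotent arrays. The SRF coactivator Myocd stood at 9.11 in WT MEF, at 7.32 in KO MEF and between 6.74 and 6.86 in the pluripotent arrays, just above background. In KO iPSC against WT pluripotent arrays none of these passed: Myh11 differed by 0.07 (SE 0.11), Lmod1 by 0.11 (SE 0.15) and Myocd by -0.07 (SE 0.08). Desmin Des, the intermediate filament of muscle, was 2.47-fold lower in KO iPSC (-1.31, SE 0.17) and smoothelin Smtn 1.34-fold (-0.43, SE 0.09).

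Other contractile genes of smooth muscle changed in part. Counts for these lists against WT pluripotent arrays stand beside 8.81% of all genes called lower and 6.89% higher. Of 26 such genes, 9 fell and 1 rose in KO iPSC against WT pluripotent arrays, with a median of -0.45. Against WT iPSC 10 fell and 0 rose, where 9.55% of all genes were called lower and 6.93% higher. The non-muscle calponin relative Cnn2 fell 4.58-fold (-2.19, SE 0.14), and Ppp1r14a, an inhibitor of myosin phosphatase, fell 2.48-fold (-1.31, SE 0.23). The cytoskeletal scaffold gene Palld was 1.97-fold lower. Ppp1r14a stood at 8.12 and 8.26 in the MEF arrays and at 8.47 to 9.21 in the WT pluripotent arrays, so for this gene the MEF arrays were below the WT pluripotent ones. Of 27 genes of the actin and non-muscle myosin cytoskeleton, 7 fell and 2 rose, with a median of -0.01. Filamins Flnc (-1.83, SE 0.24) and Flna (-1.27, SE 0.09) and the actin-sequestering Tmsb4x (-1.24, SE 0.24) fell. The ubiquitous actins Actb (0.11, SE 0.08) and Actg1 (0.46, SE 0.12, adjusted p = 0.0554) did not pass.

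Among the regulators, Srf itself rose in KO iPSC, from 10.24 to 10.36 in the WT pluripotent arrays to 10.95 and 11.01 (0.66, SE 0.08, adjusted p = 0.00656). Of 24 SRF cofactors and TGF-beta inputs, 5 rose and 3 fell. The endoderm and smooth muscle factor Gata6 rose (1.15, SE 0.14), and Tgfb1 (-1.48, SE 0.16) and its signal transducer Smad3 (-1.14, SE 0.18) fell. Hey2 (0.69, SE 0.16) and the TGF-beta receptor gene Tgfbr1 (0.59, SE 0.10) rose, and Smad7 (-0.68, SE 0.08) fell. Tgfbr1 and Smad7 were named after their values were seen. Klf4, which represses smooth muscle genes and belongs to the pluripotency network, did not pass (0.18, SE 0.10). Of 16 genes that control light chain phosphorylation, 2 fell and 1 rose, which is near the share over all genes. The small GTPase Rhoc differed most (-2.20, SE 0.12).

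Kcnma1's relatives gave no call. Of 14 relatives and accessory subunits, 0 were called in limma in either direction and 1 had an unadjusted p under 0.05, where 15.7% of all genes were called. Several could not show a change: the accessory subunits Kcnmb2 and Kcnmb3 lay below background in all 7 arrays, and Kcnmb4 lay between 6.28 and 6.54. Of 23 other calcium and potassium channel genes of smooth muscle, 3 rose and 2 fell. The IP3 receptor Itpr3 (-1.84, SE 0.12) and the calcium channel subunit Cacna2d1 (at least 1.58-fold) fell, and the ryanodine receptor Ryr2 (1.45, SE 0.10) and the plasma membrane calcium pump Atp2b1 (0.93, SE 0.07) rose.

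Across the 7 arrays most contractile genes had similar profiles. Pearson's r over the arrays was 0.973 between Acta2 and Tagln, 0.981 between Tagln and Cnn1 and 0.984 between Tpm1 and Tpm2, but 0.36 between Kcnma1 and Acta2 and 0.05 between Kcnma1 and Kcnmb1. These are descriptions over 7 arrays that share cell types and carry no test. The 5 genes outside the set whose centred profile lay nearest to Acta2 were Ncam1 (Euclidean distance 1.304 in log2 units), Thbs1 (1.45), Timp2 (1.58), Ccnd2 (1.65) and Igfbp7 (1.68). The nearest to Kcnma1 were Dusp9 (3.18), Crmp1 (3.32), Uchl1 (3.41), Tubb3 (3.41) and Snora34 (3.43). The nearest gene to Kcnma1 thus lay farther from it than the fifth nearest did from Acta2.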

How the data were processed

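RNA of 7 samples was hybridised to 1 single-colour Affymetrix array each. The authors deposited linear probe set intensity values. RMA and Expression Console (Affymetrix, 1.3.0.187) are named in the submitters' processing notes. Genome build and annotation are not given in the sources used here. Here log2 was taken with no further normalization. Of 33649 probe sets, 23521 carry 1 symbol in the platform annotation, 1814 several and 8314 are unlisted. The probe set with the highest mean stood for a gene (22180 genes). Array number, not depth, limits precision.

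Differences were tested with limma 3.58.1 in R 4.3.3 (lmFit, eBayes), two-sided, and p-values were adjusted by Benjamini-Hochberg across the 22180 genes (threshold 0.05). KO iPSC against the 3 WT pluripotent arrays was fitted on those 5 arrays (3 residual degrees of freedom). All other tests came from 1 group-means fit of the 7 arrays, leaving 2 residual degrees of freedom, which gives groups of 1 array the spread of the iPSC replicates. The method was also run on simulated data, drawn with the mean spread of the iPSC pairs in every array. That simulation cannot check whether the single ESC and MEF arrays vary like iPSC. Where every array on the dim side lay below its yardstick, a fold is a lower bound. From 10 fixed lists, 194 of 206 symbols were measured; 12 were not analysed here. Named were all members, defining genes and up to 4 called genes per list with the largest difference. Members and lists were chosen with earlier results of these data known.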

Additional observations from a re-analysis of the deposited data

Results flagged for a closer look

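In 4 genes the interaction of cell type and genotype passed its test. The KO difference minus the WT difference was -4.25 for Acta2 (SE 0.48, adjusted p = 0.0138) and -2.59 for Tagln (SE 0.32, adjusted p = 0.0163). It was -0.80 for Tpm1 (SE 0.15, adjusted p = 0.0424) and 2.79 for Kcnmb1 (SE 0.31, adjusted p = 0.0133), all in limma. With array medians set equal, Tpm1 did not pass in limma (-0.73, adjusted p = 0.0534). For Acta2 and Tagln the MEF arrays differed by -0.06 and -0.16 between genotypes and the iPSC arrays by -4.30 and -2.75. Acta2 in WT and KO MEF (13.52 and 13.47 on the log2 scale) lay near the highest intensity measured. Whether differences are compressed at that level, which would affect the Acta2 interaction, was not tested. For Kcnmb1 the iPSC arrays were all below background, so its value is in effect the difference of the MEF arrays (-2.84), with an SE from iPSC arrays at background, and is not read as a tested difference. Each MEF genotype is 1 array, so its own spread was not measured.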

How the results depend on the processing

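Median centring, quantile normalization, leaving out the dimmest genes at either of 2 limits, trend and robust fitting, the mean of all probe sets and a replicate block kept the number of the 10 genes called within 1.5 times of the reported one in all 6 tests, and reversed 0 members. Over those 7 settings the counts ran from 6 to 7 for KO iPSC against WT pluripotent, 5 to 7 against WT iPSC, 6 to 9 for WT iPSC against WT MEF, 7 to 9 for KO iPSC against KO MEF and 3 to 4 for the interaction, and stayed at 0 for WT ESC against WT iPSC. The replicate numbers do not pair the samples by their labels, and replicate 1 minus 2 in WT and in KO iPSC correlated at 0.017 across genes. With the replicate block 6 genes passed against WT pluripotent (Tpm1 lost) and 7 against WT iPSC (Myl9 gained). With 1 array left out, the counts changed in all 6 tests, and the share of all genes called moved as well. Most of these fits leave an iPSC group with 1 array, so their counts are not set beside the reported ones. Tpm1 against WT pluripotent arrays was also lost without either WT iPSC array and with quantile normalization (adjusted p = 0.0565), and Myl9 without WT ESC (0.0591). Some directions turned with 1 array left out, and the cause was not tested. In WT ESC against WT iPSC the range was -0.62 to 0.072 for Cnn1, -1.002 to 0.80 for Myl9, -1.78 to 0.15 for Actg2 and -0.67 to 1.43 for Kcnma1. Kcnma1 ranged from -0.51 to 1.59 in WT iPSC against WT MEF. Kcnmb1, below background, ranged from -0.20 to 0.23 in KO iPSC against WT pluripotent arrays and from -0.26 to 0.17 against WT iPSC. Over all genes, 1529 were called higher and 1954 lower in KO iPSC against WT pluripotent arrays, 962 and 1347 with the replicate block, 157 and 184 without KO iPSC replicate 1, and 173 and 230 without replicate 2. Fits with an iPSC array left out rest on fewer residual degrees of freedom, and Mylk and Kcnmb1 were not tested at the stricter limit on dim genes.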
